A study of Rattus norvegicus with 18 samples.

Results

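Matrix metalloproteinases (MMPs) and their tissue inhibitors were followed in RNA from rat tibialis anterior, the fast-twitch muscle at the front of the lower hindlimb. The set was given by name as 8 genes, the proteases Mmp2, Mmp3, Mmp9 and Mmp14 and the inhibitors Timp1, Timp2, Timp3 and Timp4, and 7 of them had an entry under their symbol among 30560 entries. Timp2 is not analysed here, so every statement on the inhibitors as a group covers Timp1, Timp3 and Timp4. The 18 libraries came from 5 groups. At 9 months of age there were 3 wild-type (WT) libraries, 3 from DMD rats, which model Duchenne muscular dystrophy, and 6 from rats labelled p16-null DMD, a label that names the dystrophic genotype and a loss of p16, a senescence-linked cell cycle inhibitor made from Cdkn2a. The remaining libraries were of WT muscle, 3 at 3 months of age and 3 at 18 months. The edits behind the DMD and p16-null labels, the sex of the animals and any batch of preparation are not given in the labels. Only the titles separate the libraries of a group, so the spread on which p-values rest may be technical in part.

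MMPs are zinc-dependent enzymes that cut proteins of the extracellular matrix and of cell surfaces, and most are made as inactive precursors. Mmp2 and Mmp9 are gelatinases that cut basement membrane and denatured collagen, Mmp3 (stromelysin 1) cuts a wide range of matrix proteins and activates other precursors, and Mmp14 sits in the cell membrane and activates the Mmp2 precursor. TIMPs block active MMPs by binding to the catalytic site. Timp1 is secreted and strongly inducible, Timp3 is held in the matrix and also blocks several ADAM and ADAMTS proteases, and Timp4 is found mainly in heart and muscle. In muscle these enzymes act on the basement membrane and connective tissue around the fibres, where satellite cells, fibroblasts and infiltrating leukocytes lie.

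The promoters of 3 members are shown because their transcripts behaved differently: Timp1 and Mmp3 had the highest fitted fold changes among the members that passed the test in DMD against WT muscle, while Timp3 did not pass that test. The set of RefSeq promoters used (build GRCr8) had an entry for 5 of the 8 genes. The 250 bases before the annotated start are printed 5′ to 3′ on the strand of the gene, at chrX:3771123-3771372 (minus strand) for Timp1, chr7:19459559-19459808 (minus strand) for Timp3 and chr8:12925031-12925280 (plus strand) for Mmp3. Capitals mark matches on either strand to 4 motifs, which were chosen with earlier results known.
Timp1: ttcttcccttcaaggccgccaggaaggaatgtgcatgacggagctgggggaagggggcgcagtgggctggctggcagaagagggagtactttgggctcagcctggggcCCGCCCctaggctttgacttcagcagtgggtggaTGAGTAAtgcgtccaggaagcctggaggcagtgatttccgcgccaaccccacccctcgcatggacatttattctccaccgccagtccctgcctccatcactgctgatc
Mmp3: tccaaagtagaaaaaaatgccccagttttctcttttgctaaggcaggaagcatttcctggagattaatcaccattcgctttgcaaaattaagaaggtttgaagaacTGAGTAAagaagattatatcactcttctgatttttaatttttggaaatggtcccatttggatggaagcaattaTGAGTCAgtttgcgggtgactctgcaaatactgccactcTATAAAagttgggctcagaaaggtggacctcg
Timp3: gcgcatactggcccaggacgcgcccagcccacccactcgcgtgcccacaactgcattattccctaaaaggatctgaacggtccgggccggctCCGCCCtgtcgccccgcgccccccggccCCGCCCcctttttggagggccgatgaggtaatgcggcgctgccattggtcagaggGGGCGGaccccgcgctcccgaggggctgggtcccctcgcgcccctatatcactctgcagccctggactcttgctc
The motifs were TGANTCA, which takes in the AP-1 site, TGAGTAA, a variant of it, GGGCGG, the core of an Sp1 site, and TATAAA, and none of the matches overlapped another. Mmp3 had TGAGTCA 71 to 65 bases before the start, TGAGTAA 144 to 138 bases before it and TATAAA 32 to 27 bases before it. Timp1 had TGAGTAA 108 to 102 bases and CCGCCC, the reverse complement of GGGCGG, 142 to 137 bases before its start. Timp3 had no match to the first pair of motifs in this window, and GGGCGG in either orientation at 158 to 153, 130 to 125 and 75 to 70 bases. Of the promoters not printed, that of Timp4, which fell in DMD muscle, had no match to any of these motifs. That of Timp2 had CCGCCC 54 to 49 bases before its start. Among 33469 RefSeq promoter windows of this length, 6.34% held TGANTCA, 2.38% TGAGTAA, 8.51% either of these, 30.5% GGGCGG and 12.9% TATAAA. A match describes letters in the reference and is no evidence of binding.

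Libraries held 9.61 to 21.99 M counts. Dmd, the dystrophin gene, stood at 113.6 to 167.5 CPM (counts scaled to a common library total, after TMM) in WT muscle of 9 months, 31.4 to 44.3 CPM in DMD muscle and, in p16-null DMD muscle, at 30.9 to 54.1 CPM, the direction that the DMD label implies. Cdkn2a stood at 10.7 to 19.4 CPM in DMD muscle and at 10.1 to 15.3 CPM where the label is p16-null, and gene-level counts cannot check the p16-null label. Skeletal muscle fibre markers were present in all libraries, which fits the tissue label. Scaling matters here: the median gene differed by 0.11 on the log2 scale between DMD and WT muscle after TMM scaling, and by 0.76 when only library totals were used. Changes below are log2 fold changes with their SE from edgeR, and "rose" or "fell" means an adjusted p under 0.05 over all tested genes. In RNA of whole muscle, fewer cells of a type and less RNA per cell cannot be told apart.

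In DMD against WT muscle at 9 months, 4 of the 7 members rose and 1 fell. The gelatinase Mmp2, its activator Mmp14, stromelysin Mmp3 and the inhibitor Timp1 rose, Timp4 fell, and Mmp9 and Timp3 did not pass the test. Of all 14801 genes tested, 48.3% changed, 26.4% upward and 21.8% downward. The groups did not overlap for 5 of the 7 members, against 56.4% of all genes. Because so many genes differed, the count of members is read here with the sizes: the median change of the 7 members was 2.31, against 0.11 over all genes.

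Mmp2 (ENSRNOG00000016695) was the most abundant protease in every library. It stood at 144, 122 and 139 CPM in the WT libraries of 9 months and at 722, 605 and 639 CPM in the DMD libraries. All DMD libraries lay far above all WT libraries, a change of 2.29 ± 0.19 (adjusted p = 1.5e-06). Mmp14 (ENSRNOG00000010947) stood at 18.9, 12.6 and 19.2 CPM in WT and 88.1, 74.6 and 88.1 CPM in DMD muscle. Its change of 2.31 ± 0.27 (adjusted p = 1.1e-05) was of the same size as that of Mmp2, and the TPM ratio of Mmp2 to Mmp14 was 5.30 to 7.05 in WT and 5.50 to 6.26 in DMD libraries. Mmp3 (ENSRNOG00000032626) was nearly silent in WT muscle at 0.43, 1.08 and 3.03 CPM and reached 33.1, 17.6 and 26.7 CPM in DMD muscle. The lowest DMD library was thus well above the highest WT library, and the change was 4.07 ± 0.92 (adjusted p = 0.0021), or 5.19 without WT replicate 3, the highest of its group.

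Mmp9 (ENSRNOG00000017539), the gelatinase made largely by leukocytes, was at the edge of detection. The WT libraries of 9 months held 2 counts in all and the DMD libraries 47, with 0, 0 and 0.18 CPM in WT and 0.14, 1.33 and 1.27 CPM in DMD muscle. DMD replicate 1 lay within the WT range and the other two lay above it. The ratio of summed counts was 14.4 with a 95% interval of 3.78 to 123, which covers counting error only. The edgeR change of 3.64 ± 1.79 did not pass (adjusted p = 0.11), but it passed without p16-null DMD replicate 1, which shares the fit (adjusted p = 0.026), by DESeq2 (adjusted p = 0.045) and with library totals (adjusted p = 0.047). It was 6.79 without WT replicate 3 (adjusted p = 0.11), 3.05 without WT replicate 1 (adjusted p = 0.24) and 0.59 by limma on log2(TPM + 1) (adjusted p = 0.32).

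Among the inhibitors, Timp1 (ENSRNOG00000010208) had the highest fold change of the members that passed. It stood at 5.04, 7.02 and 6.25 CPM in WT muscle and at 96.7, 206 and 220 CPM in DMD muscle. DMD replicate 1 was the lowest of its group, but even there the level was far above any WT library of that age, and the change was 4.84 ± 0.44 (28.7-fold, adjusted p = 2.3e-06). Timp3 (ENSRNOG00000004303) had overlapping groups at 118, 141 and 163 CPM in WT and 143, 111 and 214 CPM in DMD muscle. Its difference was 0.15 ± 0.26 (adjusted p = 0.67). With library totals it was 0.80 (adjusted p = 0.027), near the 0.76 of the median gene under that scaling.

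Timp4 (ENSRNOG00000007955) stood at 65.2, 85.0 and 64.4 CPM in WT and 51.6, 23.4 and 29.2 CPM in DMD muscle. All DMD libraries were below all WT libraries, and Timp4 fell by 1.03 on the log2 scale (SE 0.32, adjusted p = 0.016). With library totals the difference was -0.38 (adjusted p = 0.33), and Timp4 lay below the median gene under both scalings. The call was also lost without WT replicate 2 (adjusted p = 0.061), DMD replicate 2 (adjusted p = 0.070) and DMD replicate 3 (adjusted p = 0.066).

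**Figure D1:**
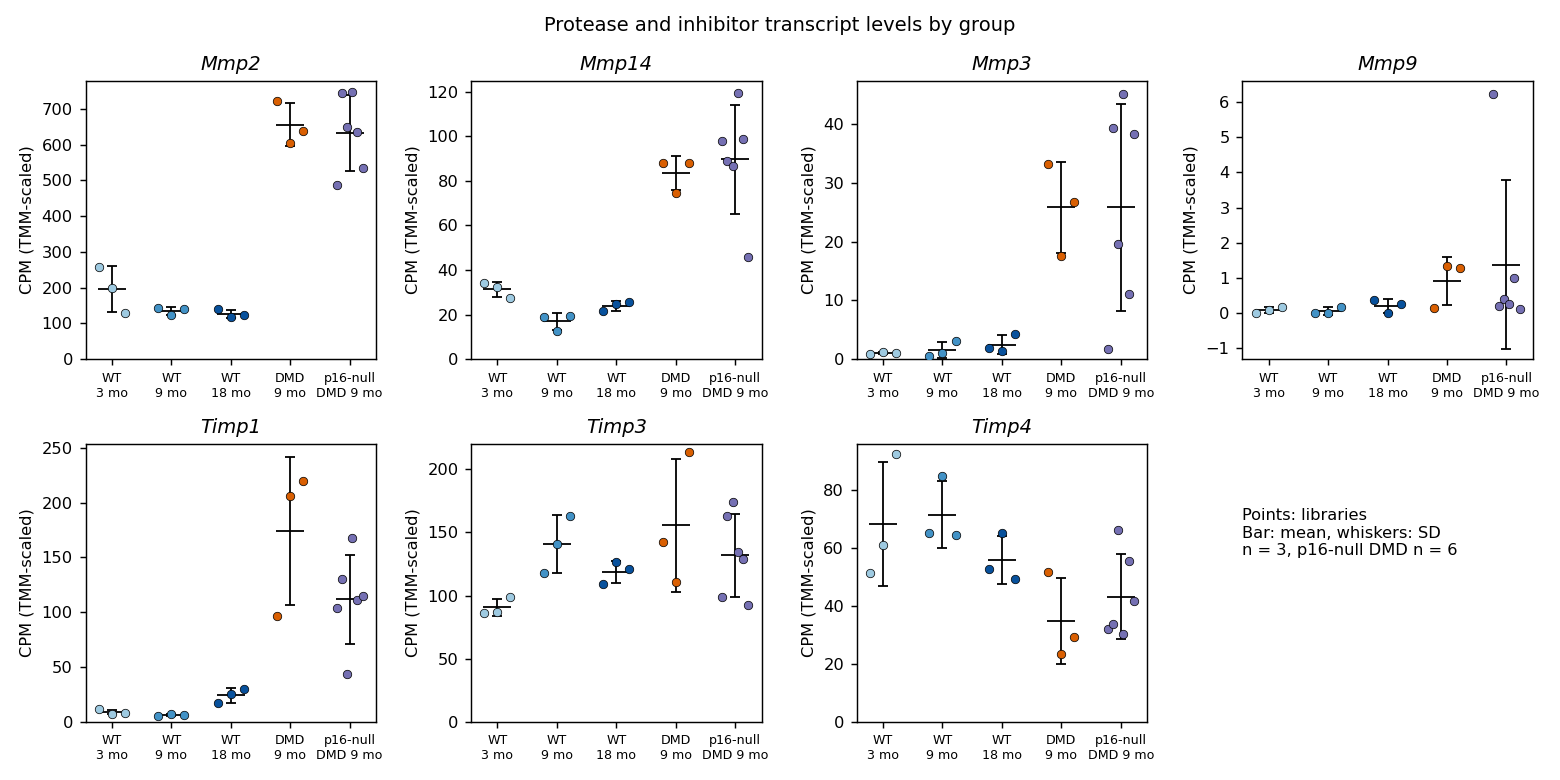
CPM of each gene in each library (points), by group, with the group mean (bar) and SD (whiskers), n = 3 per group and n = 6 for p16-null DMD. Mmp2, Mmp14, Mmp3 and Timp1 are high in the dystrophic groups, the Mmp9 panel is dominated by p16-null DMD replicate 1 at 6.23 CPM, and its axis starts below 0 to hold the SD whisker.

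Markers of other cell types moved with these genes, while 26.4% of all genes rose and 21.8% fell. All 10 macrophage markers rose in DMD muscle, and their summed level was 401 to 449 CPM in WT and 2355 to 3672 CPM in DMD libraries. Of 9 fibroblast and fibro-adipogenic progenitor markers with an entry, 8 rose, and their sum was 3041 to 3164 CPM in WT and 8160 to 9355 CPM in DMD libraries. The 10 neutrophil markers summed to 2.9 to 6.6 CPM in WT, where Camp was at 0, and to 25.0 to 78.9 CPM in DMD muscle, and all 6 that could be tested rose. In DMD replicates 1, 2 and 3 that sum was 25.0, 78.9 and 58.8 CPM. The DMD library with the lowest Mmp9 level was thus also lowest in neutrophil markers. In p16-null DMD muscle replicate 1 was highest in both, but Mmp9 was lowest in replicate 6 and the neutrophil sum in replicate 3. Adipocyte markers went from a sum of 845 to 996 CPM up to 2014 to 2119 CPM, with 7 of 10 rising and 1 falling. Endothelial markers stood at 601 to 704 CPM in WT and 563 to 693 CPM in DMD muscle, and 2 of 8 fell. The 9 skeletal fibre markers summed to 132272 to 149358 CPM in WT and 35164 to 54857 CPM in DMD libraries. The part of these shifts in the changes of the proteases and inhibitors was not tested.

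In p16-null DMD against WT muscle, 5 of the 7 members rose and 1 fell, while 50.2% of all genes changed, 27.5% upward and 22.7% downward. This comparison shares its WT libraries with the previous one. Mmp2 ran from 486 to 746 CPM with a median of 642, all above the WT libraries (2.23 ± 0.18, adjusted p = 5.3e-07). Mmp14 ran from 46.0 to 119.5 CPM with a median of 93.5, again all above WT (2.40 ± 0.25, adjusted p = 3.4e-06). Timp1 ran from 43.3 to 168 CPM with a median of 113, and its lowest library, replicate 3, still lay above every WT library of any age (4.21 ± 0.41, adjusted p = 2.0e-06). These 3 genes were the members without overlap, against 45.3% of all genes.

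Mmp3 varied most among the proteases of this group that were clearly detected. Its levels were 1.63, 39.3, 19.5, 45.1, 11.1 and 38.4 CPM in replicates 1 to 6, a spread of more than 1 order of magnitude. Replicate 1 lay inside the WT range of 0.43 to 3.03 CPM and the other 5 lay above it. Mmp3 rose by 4.08 ± 0.88 over the group (adjusted p = 0.0013), or by 5.19 without WT replicate 3. Mmp9 showed the reverse picture, with 6.23 CPM in replicate 1 and 0.13 to 0.997 CPM in the other 5 libraries. Of the 110 Mmp9 counts of the group, 80 came from replicate 1. The ratio of summed counts to WT was 17.3 (95% interval 4.68 to 145, counting error only). Its change of 4.16 ± 1.67 barely passed (adjusted p = 0.0497) and was 2.41 (adjusted p = 0.13) without replicate 1. It was also lost without p16-null DMD replicate 5, without DMD replicate 2 or 3 and without any 1 of the WT libraries (adjusted p = 0.055 to 0.15), of which leaving out replicate 3 gave 7.30 (adjusted p = 0.072). With RLE scaling it was 4.15 (adjusted p = 0.052), and limma on TPM gave 0.62 with a pseudocount of 1 (adjusted p = 0.21) and 2.02 with one of 0.1 (adjusted p = 0.081).

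Cell type markers also moved in p16-null DMD against WT muscle, where 27.5% of all genes rose and 22.7% fell. All 10 macrophage markers rose, to a sum of 1560 to 4638 CPM, and so did 8 of 9 fibroblast markers (5727 to 11773 CPM). Of 10 adipocyte markers 7 rose and 1 fell (719 to 2868 CPM, a range that takes in that of WT). Of 6 tested neutrophil markers 4 rose (9.5 to 67.7 CPM). Of 9 skeletal fibre markers 8 fell, to a sum of 29451 to 61696 CPM. The libraries also differed among themselves. Replicate 1 had the highest sum of macrophage markers (4638 CPM, against 1560 to 3021 CPM in the others) and of neutrophil markers (67.7 CPM, against 9.5 to 36.0 CPM), with Ly6g6e and Elane at 0 in all 6 libraries. It also had the lowest sum of fibroblast markers (5727 CPM, against 6776 to 11773 CPM). Replicate 3, the lowest in Timp1, had the highest sums of fibroblast (11773 CPM) and adipocyte markers (2868 CPM). The part of these shifts and differences in the protease and inhibitor levels was not tested.

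Timp3 stood at 92.5 to 174 CPM in p16-null DMD muscle with a median of 132, and overlapped WT. Its difference from WT was -0.08 ± 0.23 (adjusted p = 0.78) after TMM scaling, but 0.64 (adjusted p = 0.049) by limma on log2(TPM + 1), where the median gene stood at 0.66. Timp4 stood at 30.3 to 66.2 CPM with a median of 37.6, and only its highest library, replicate 3, overlapped WT. It fell by 0.71 on the log2 scale (SE 0.27, adjusted p = 0.0395), but its difference was -0.10 with library totals (adjusted p = 0.77) and -0.01 by limma on log2(TPM + 1) (adjusted p = 0.97). The Timp4 call was also lost in 7 of the 12 fits with a library left out, those without WT replicate 1, 2 or 3 or p16-null DMD replicate 1, 2, 4 or 6 (adjusted p = 0.056 to 0.16).

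**Figure D2:**
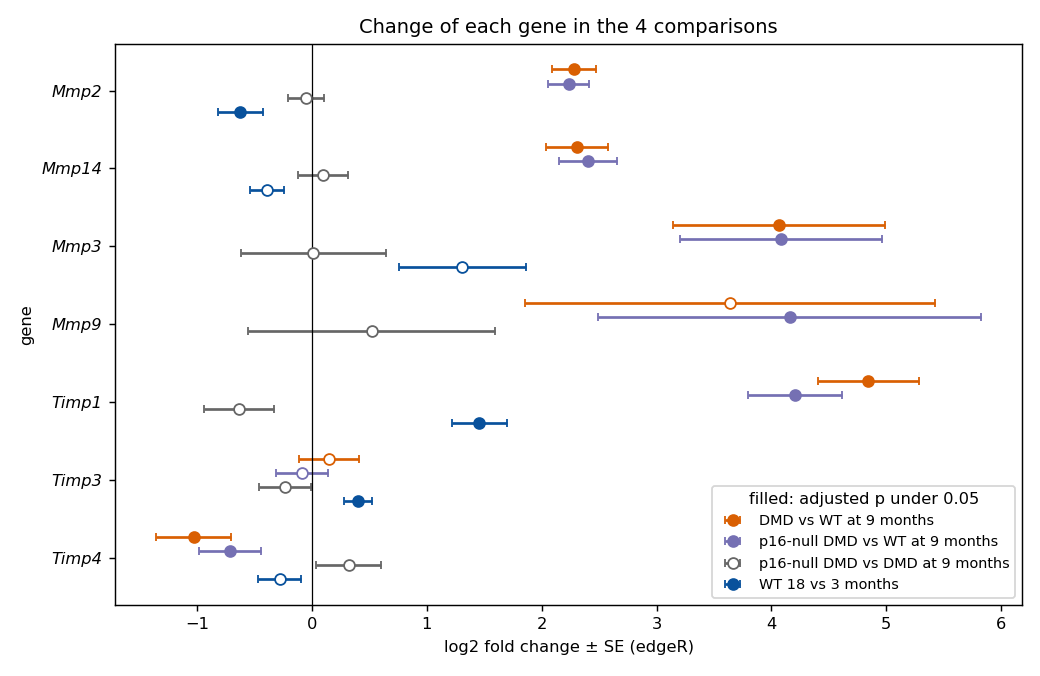
Log2 fold change of each gene with its SE from edgeR in the 4 comparisons, filled where the adjusted p is under 0.05. Changes of dystrophic against WT muscle run from 2.23 to 4.84 for Mmp2, Mmp14, Mmp3 and Timp1, and no p16-null DMD against DMD point is filled.

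Muscle labelled p16-null DMD was set against DMD muscle to ask whether these genes differed between dystrophic animals with and without that label. None of the 7 members passed the test by edgeR, none had an unadjusted p under 0.05, and none passed by DESeq2. Of all genes tested, 0.00676% passed, which is 1 gene, and 764 had an unadjusted p under 0.05. No member had groups without overlap, against 2.01% of all genes. The 95% intervals of the differences, on the log2 scale, were -0.39 to 0.29 for Mmp2, -0.37 to 0.56 for Mmp14, -1.33 to 1.35 for Mmp3, -1.77 to 2.81 for Mmp9, -1.28 to 0.01 for Timp1, -0.71 to 0.24 for Timp3 and -0.28 to 0.92 for Timp4. The intervals of Mmp2, Mmp14, Timp3 and Timp4 lay within a 2-fold difference in either direction, and those of Mmp3, Mmp9 and Timp1 did not. For Timp4 this rests on DMD replicate 1, without which the difference was 0.73 ± 0.29 (adjusted p = 0.46).

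Timp1 had the lowest of these estimates, with a difference of -0.64 ± 0.30 (adjusted p = 0.92) and group means of 112 ± 40.5 (SD, n = 6) and 174 ± 67.5 CPM (SD, n = 3). Without DMD replicate 1, whose Timp1 level was below that of 5 of the 6 p16-null DMD libraries, the difference was -0.92 (adjusted p = 0.33). That library also stood apart for genes related to MMP control. Adamts4, a proteoglycan-cutting protease, was at 19.3 CPM there and at 66.9 and 73.7 CPM in DMD replicates 2 and 3. Without it, Adamts4 (-2.42, adjusted p = 0.015), Adamts1 (-2.08, adjusted p = 0.0057), Tfpi2 (-1.88, adjusted p = 0.0087), Plaur (-1.76, adjusted p = 0.010) and Thbs1 (-1.59, adjusted p = 0.010) were lower in p16-null DMD than in DMD muscle, and 85 genes passed in all. These genes were picked after their values were seen, and the fit without that library was added at the same stage. For each of them DMD replicate 1 lay within the p16-null DMD range, as with Adamts1 at 53.0 CPM against 35.3 to 81.1 CPM. Leaving it out therefore widens the difference by construction, and 2 DMD libraries remain. The p-values of that fit are thus no test of a difference, and with all libraries none of these genes passed.

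In WT muscle of 18 against 3 months, Timp1 and Timp3 rose and Mmp2 fell, out of 6 members tested. Of 13487 genes tested, 19.4% changed, 9.31% upward and 10.1% downward. The groups did not overlap for Mmp14, Mmp3, Timp1 and Timp3, 4 of 6, against 36.1% of all genes. The median change of the 6 members was 0.06 and that of all genes 0.00.

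Timp1 stood at 11.4, 7.10 and 8.13 CPM at 3 months and at 16.9, 25.7 and 30.3 CPM at 18 months. All libraries of 18 months were above all of 3 months, a rise of 1.46 ± 0.24 (adjusted p = 0.00066) that passed in all 16 alternative fits (1.27 to 1.77). Timp3 stood at 86.4, 86.7 and 98.7 CPM at 3 months and at 109, 126 and 121 CPM at 18 months, a rise of 0.40 ± 0.12 (adjusted p = 0.032). It was lost in 1 fit of all libraries (adjusted p = 0.31), without WT 3-month replicate 1 (adjusted p = 0.093) or 2 (adjusted p = 0.11) and without 18-month replicate 2 (adjusted p = 0.12) or 3 (adjusted p = 0.078). Timp4 was at 51.5, 61.0 and 92.4 CPM at 3 months and at 52.7, 65.4 and 49.5 CPM at 18 months, with a difference of -0.28 ± 0.19 (adjusted p = 0.33).

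Mmp2 stood at 257, 200 and 129 CPM at 3 months and at 140, 117 and 122 CPM at 18 months, so that the groups overlapped. It fell by 0.63 on the log2 scale (SE 0.20, adjusted p = 0.036). Without 3-month replicate 1, the highest library, the difference was -0.37 (adjusted p = 0.18), and the call was lost on leaving out 3-month replicate 2 (adjusted p = 0.091) or 18-month replicate 1, 2 or 3 (adjusted p = 0.061 to 0.13). With library totals the difference was -0.41 (adjusted p = 0.18). Mmp14 stood at 34.0, 32.3 and 27.6 CPM and then at 21.5, 24.6 and 25.4 CPM, with a difference of -0.39 ± 0.15 (adjusted p = 0.084) that passed without 3-month replicate 3 (-0.48, adjusted p = 0.041). Mmp3 was low at both ages, at 0.89, 1.17 and 0.95 CPM and at 1.81, 1.297 and 4.29 CPM (1.31 ± 0.56, adjusted p = 0.12). Mmp9 held 3 counts at 3 months and 7 at 18 months, too few for the test. Its count ratio was 2.29 (95% interval 0.52 to 13.7, counting error only).

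All 10 macrophage markers rose between these ages, from a sum of 371 to 571 CPM to one of 662 to 978 CPM. Of all genes 9.31% rose and 10.1% fell. Neutrophil markers summed to 2.7 to 9.6 and 3.2 to 14.7 CPM, with Mpo, Camp, Ly6g6e and Elane at 0 at 18 months. Of the fibroblast markers 1 rose and 3 fell, with sums of 3208 to 5122 and 3225 to 3699 CPM. Skeletal fibre markers summed to 124542 to 148190 CPM at 3 months and 75719 to 88346 CPM at 18 months. Satellite cell and myoblast markers summed to 95.4 to 122 CPM at 3 months and 384 to 395 CPM at 18 months, and 3 of 10 rose. The 9 lymphocyte markers with an entry summed to 2.3 to 4.3 and 4.2 to 6.3 CPM, and 2 of 3 that could be tested rose. The part of these shifts in the Timp1, Timp3 and Mmp2 changes was not tested.

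Across all 5 groups the order of mean levels differed from gene to gene. Timp1 was highest in DMD muscle, then p16-null DMD, WT of 18 months, WT of 3 months and WT of 9 months, and only the DMD and p16-null DMD ranges overlapped among neighbours. Mmp14 was highest in p16-null DMD, then DMD, WT of 3, of 18 and of 9 months, and again only the dystrophic pair overlapped. Mmp2 did not differ beyond its spread between DMD and p16-null DMD, and the WT groups of 3, 9 and 18 months followed with overlapping ranges. Mmp3 had the dystrophic pair above WT of 18, 9 and 3 months, of which neighbours in age overlapped and those of 3 and 18 months did not. Its p16-null DMD range reached down into the WT range through replicate 1. Mmp9 ran from p16-null DMD through DMD and WT of 18 months to the younger WT groups, with overlap at every step. The place of p16-null DMD above DMD rests on replicate 1: the medians were 0.33 and 1.27 CPM, and the difference of 0.52 between these groups was -1.23 without that library. Timp3 was lowest in WT of 3 months, and the other groups, DMD, WT of 9 months, p16-null DMD and WT of 18 months in falling order, overlapped as neighbours. Timp4 fell in the order WT of 9, 3 and 18 months, p16-null DMD and DMD with overlap between all neighbours. The WT muscle of 9 months was not tested against the other ages, since the design compares 3 with 18 months.

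Levels between genes can be compared only per transcript length, as TPM. In WT muscle of 9 months Timp3 was the most abundant member at 98.2 ± 20.2 TPM (SD, n = 3), followed by Mmp2 at 51.3 ± 6.71 and Timp4 at 25.3 ± 2.89, with Timp1 at 9.65 ± 1.42, Mmp14 at 8.70 ± 2.27 and Mmp3 at 1.03 ± 0.98 TPM. In DMD muscle Timp1 came first at 468 ± 192 TPM, then Mmp2 at 425 ± 66.4, Timp3 at 188 ± 78.5, Mmp14 at 71.8 ± 11.96, Mmp3 at 29.5 ± 10.6 and Timp4 at 21.3 ± 9.98 TPM. Timp1 thus went from the fourth member in order of mean TPM to the first, though its lead over Mmp2 in DMD muscle was within the SD. In p16-null DMD muscle Mmp2 came first at 406 ± 68.5 TPM (SD, n = 6) and Timp1 was next at 300.1 ± 99.7 TPM. At 18 months WT muscle had Timp3 first at 102 ± 4.93 TPM, then Mmp2 at 59.8 ± 8.15 and Timp1 at 47.2 ± 11.7 TPM, whereas at 3 months Timp1 was at 13.9 ± 4.34 TPM.

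The balance of inhibitors to proteases was described in each library as the summed TPM of Timp1, Timp3 and Timp4 over that of Mmp2, Mmp3, Mmp9 and Mmp14. As a ratio within a library it does not depend on the scaling between libraries, it is given without a test, and it leaves Timp2 out. It was 1.76, 2.61 and 2.25 in WT muscle of 9 months and 0.79, 1.45 and 1.69 in DMD muscle, so the highest DMD library was just below the lowest WT library. The mean log2 ratio differed by -0.81 in DMD against WT muscle, or by -0.48 without DMD replicate 1. Both sums were higher in DMD muscle: the inhibitors went from 133 ± 21.6 to 677 ± 239 TPM and the proteases from 61.1 ± 9.52 to 527 ± 87.7 TPM. The inhibitor sum was thus higher by a smaller factor than the protease sum, of which Mmp2 made up most.

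In the 6 p16-null DMD libraries the ratio was 1.05, 0.94, 0.71, 1.03, 0.97 and 1.03, all below every WT library of that age, with a difference of -1.20 in mean log2 ratio. Against DMD muscle the difference was -0.40, with the p16-null DMD values inside the DMD range except for replicate 3. Taken as a difference of mean log2 TPM over the genes it was 0.01, so its direction depends on the definition. As a ratio of sums it was -0.72 without DMD replicate 1, which had the lowest ratio of its group, and -0.18 without DMD replicate 3. In WT muscle the ratio was 0.84, 0.998 and 1.82 at 3 months and 1.86, 2.62 and 2.42 at 18 months, a difference of 0.98. The third library of 3 months nearly reached the lowest of 18 months. Of the ratios of 3-month WT muscle, 2 thus lay in the range of the dystrophic groups, with lower sums on both sides (97.7 ± 3.22 TPM of inhibitors and 89.9 ± 34.2 TPM of proteases).

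**Figure D3:**
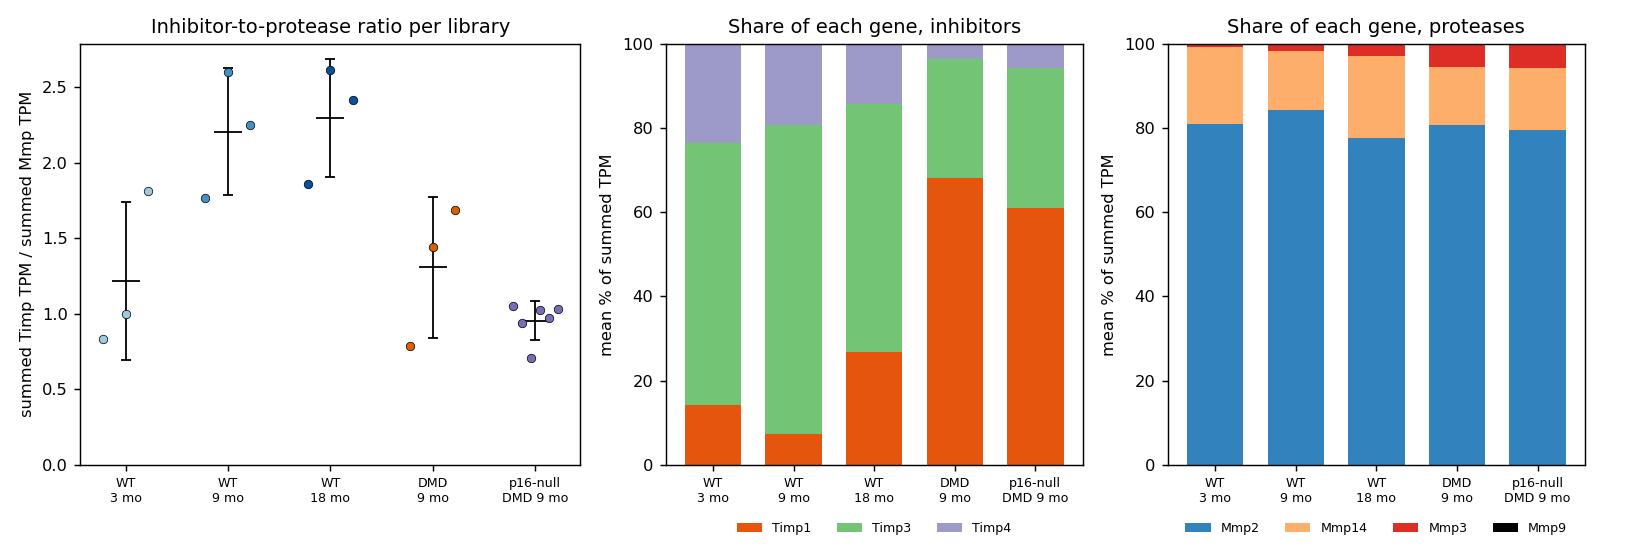
Left, summed TPM of Timp1, Timp3 and Timp4 over that of the 4 proteases in each library (points), with mean and SD. Middle and right, the mean share of each gene in the inhibitor and protease sums by group: Timp1 goes from 7.28% of the inhibitors in WT to 68.1% in DMD muscle at 9 months, while Mmp2 stays between 77.8 and 84.3% of the proteases and Mmp9 is too small to see.

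The make-up of the inhibitor sum differed more between groups than that of the protease sum. Timp1 made up 6.71 to 7.99% of the inhibitor TPM in WT muscle of 9 months. Its share was 56.3 to 79.0% in DMD muscle, and 32.3 to 72.4% in that of p16-null DMD rats. It made up 11.5 to 18.6% at 3 months and 21.9 to 32.1% at 18 months. The share of Timp3 was lower in DMD muscle at 9 months, at 18.9 to 36.9% against 70.4 to 77.6% in WT. This is a share of a sum that Timp1 enlarged, and Timp3 itself was not lower. It stood at 98.2 ± 20.2 TPM in WT and 188 ± 78.5 TPM in DMD muscle (SD, n = 3). In TPM the median gene was also higher in DMD muscle, by 0.66 on the log2 scale with a pseudocount of 1. After TMM scaling Timp3 differed by 0.15 ± 0.26 (edgeR, adjusted p = 0.67). Mmp2 made up 74.7 to 86.4% of the protease TPM in all 18 libraries. Mmp3 contributed 0.44 to 3.09% in WT, 4.14 to 6.42% in DMD muscle, and its share ranged from 0.46 to 10.1% in p16-null DMD libraries. The ratio of Timp1 to Mmp2 alone was 0.15 to 0.24 in WT muscle of 9 months, 0.55, 1.39 and 1.47 in DMD muscle and 0.28 to 0.98 in p16-null DMD muscle. In aging WT muscle it went from 0.15 to 0.27 at 3 months to 0.50 to 1.04 at 18 months.

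The genes whose levels followed each member most closely over the 18 libraries were sought among 10456 genes by the root-mean-square difference of log2 CPM after centring. Closest to Mmp2 were Col6a3 at 0.19, Ssc5d at 0.20 and Olfml3 at 0.23, of which Col6a3 encodes a chain of collagen VI. Closest to Mmp14 were the other collagen VI chains Col6a2 and Col6a1, both at 0.24, and Fndc1 at 0.27. Timp1 was followed at a greater distance by Ifitm1 at 0.45, an interferon-induced membrane protein, Fcrl2 at 0.55 and Lilrb4 at 0.60, the last a leukocyte receptor. Mmp3 had no close companion, with Steap2 at 0.83, Ccn5 at 0.91 and Sfrp1, a secreted Wnt antagonist, at 0.93. Mmp9 was nearest to Rgs14 at 0.48, Alox5, the leukocyte 5-lipoxygenase, at 0.51 and Lilrb3l at 0.52, with few counts behind its values. Timp4 was nearest to Plin4 at 0.26, a lipid droplet protein, Hdhd3 at 0.28 and Cavin2 at 0.29. These are descriptions over libraries that share group differences, and Timp3 varied too little between groups (0.73 on the log2 scale) to be included.

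The rest of the MMP family was read from a list of 19 other genes, of which 18 had an entry and 12 could be tested at 9 months. In DMD muscle 7 rose and 1 fell, with a median change of 1.97, which stays the same with Mmp12 at its bound. Of all genes, 26.4% rose and 21.8% fell in DMD muscle, 27.5 and 22.7% in p16-null DMD muscle, and 9.31 and 10.1% with age. Mmp19 rose from 2.79 ± 0.37 to 26.1 ± 6.50 CPM (SD, n = 3), a change of 3.23 ± 0.27, Mmp23 from 3.27 ± 1.16 to 15.1 ± 2.21 CPM (2.18 ± 0.25) and Mmp11, first known from tumour stroma, from 1.01 ± 0.42 to 4.85 ± 1.11 CPM (2.26 ± 0.44). Mmp12, the macrophage elastase, had 0 counts in the WT libraries and 170 in the DMD libraries, at least 34.8-fold higher taking 3 counts in the WT group as the floor, at 3.20, 2.93 and 4.46 CPM. In p16-null DMD muscle it was at least 53.9-fold higher than in WT, and the list again had 7 rises and 1 fall (median 1.74). The single fall was Mmp15, a membrane-bound relative of Mmp14, at -1.05 ± 0.27 in DMD against WT muscle (adjusted p = 0.0047), named after its value was seen. No gene of the list passed between p16-null DMD and DMD muscle, by edgeR, and none had an unadjusted p under 0.05. Between 18 and 3 months 1 of 9 passed, Mmp27, named after its value was seen. Mmp27 was lower at 18 months (-2.22, adjusted p = 0.030). Its call was lost in 4 of the 6 fits with a library left out. These were the fits without 3-month replicate 1 or 3 or 18-month replicate 1 or 2.

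**Figure D4:**
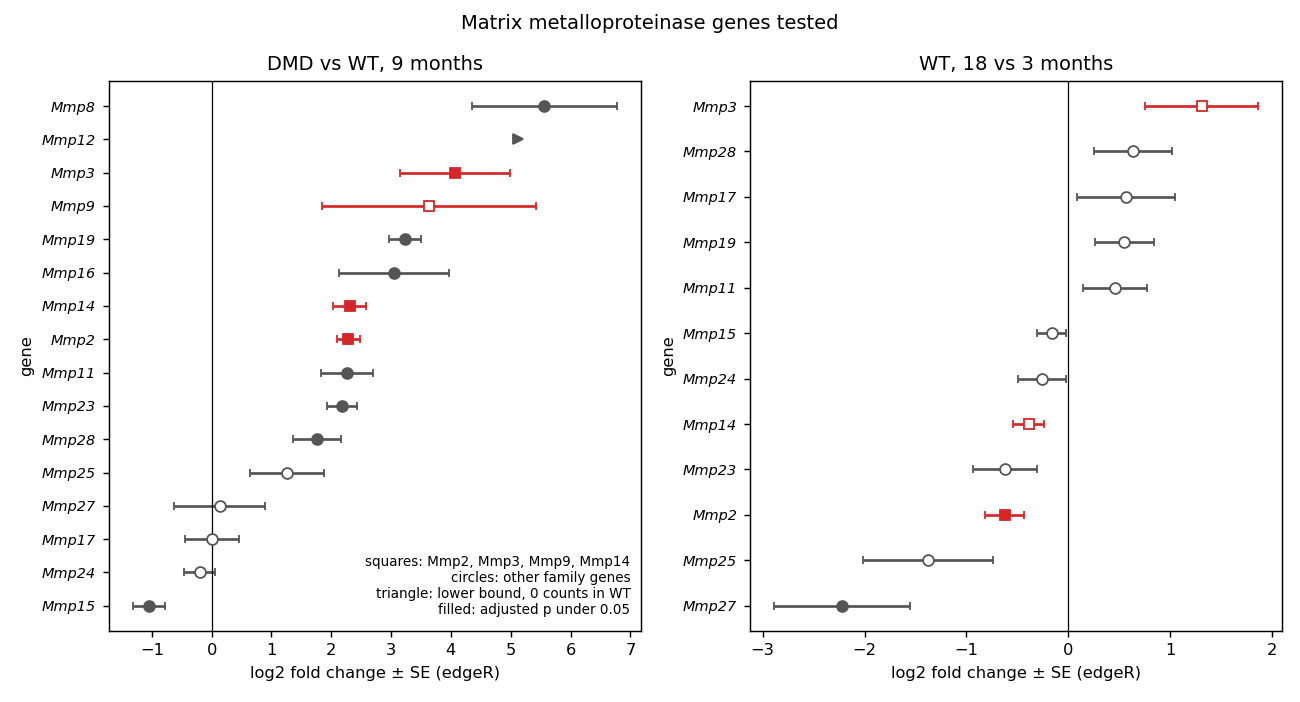
Log2 fold change with SE from edgeR for the MMP genes that could be tested, in DMD against WT muscle at 9 months (left) and in WT muscle of 18 against 3 months (right), filled where the adjusted p is under 0.05. Squares are Mmp2, Mmp3, Mmp9 and Mmp14, circles other family genes, and the triangle is the lower bound for Mmp12, which had 0 WT counts. Most genes lie to the right of 0 on the left and near 0 on the right.

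Mmp3 lies in a row of MMP genes in RefSeq order, between Mmp1b and Mmp1, with Mmp13 and Mmp12 on one side and Mmp10, Mmp8, Mmp27, Mmp20 and Mmp7 on the other. These neighbours differed in level. Mmp12 and Mmp3 were higher in DMD than in WT muscle, as was Mmp8, the neutrophil collagenase, named after its value was seen. Mmp8 had 100 DMD counts against 1 in WT (ratio 61.4). The 95% interval of 10.8 to 2449 covers counting error only. Mmp27 did not pass at 9 months. The other 6 genes were hardly detected, with 50 counts of Mmp13, 35 of Mmp7, 26 of Mmp10, 2 of Mmp1b and 1 each of Mmp1 and Mmp20 over all 18 libraries. Mmp13 had 0 counts in WT of 9 months, 30 in DMD, 16 in p16-null DMD and 4 in WT of 18 months. In the same order Mmp7 had 0, 12, 23 and 0 counts, and Mmp10 had 0, 6, 12 and 8.

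Among 27 ADAM and ADAMTS genes, of which several encode targets of Timp3, 25 were tested at 9 months. In DMD muscle 20 rose and none fell (median 1.57). The shares rising and falling over all genes were 26.4 and 21.8% in DMD muscle and 27.5 and 22.7% in p16-null DMD muscle. With age they were 9.31 and 10.1%. Adamts4 rose by 4.91 ± 0.65, Adamts7 by 3.17 ± 0.44, Adam19 by 1.59 ± 0.20 and Adamts15 by 1.57 ± 0.21. The sheddase Adam17 rose by 0.63 ± 0.17 (adjusted p = 0.0072), and its relative Adam10 differed by 0.09 ± 0.24 (adjusted p = 0.78). In p16-null DMD muscle 19 rose and none fell (median 1.303), with Adam17 at 0.53 ± 0.15 (adjusted p = 0.0096) and Adam10 at 0.34 ± 0.21 (adjusted p = 0.18). With age 4 of 23 rose and 4 fell (median 0.13), led by Adam19 with a rise of 1.76 ± 0.17, and 3 to 5 passed without 3-month replicate 1 or 2 or 18-month replicate 2 or 3. Between the dystrophic groups none passed by edgeR, and 4 of 25 had an unadjusted p under 0.05, against 5.16% of all genes.

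Of 28 other activators, inhibitors and partners of MMPs, 27 were tested at 9 months, and 21 rose and 2 fell in DMD muscle (median 1.45). Over all genes, 26.4% rose and 21.8% fell in DMD muscle, 27.5 and 22.7% in p16-null DMD muscle, and 9.31 and 10.1% with age. Cathepsin K (Ctsk), a collagen-cutting protease, rose by 2.48 ± 0.22, Thbs2, a matrix protein that takes part in clearing Mmp2, by 2.61 ± 0.32, Lrp1, the endocytic receptor in that route, by 1.92 ± 0.17 and the C1 inhibitor Serping1 by 1.91 ± 0.22. The urokinase gene Plau (0.42 ± 0.16, adjusted p = 0.036) and the proprotein convertase Furin, which activates Mmp14 (0.52 ± 0.19, adjusted p = 0.036), rose by less. Reck, a membrane-bound MMP inhibitor, differed by 0.54 ± 0.28 (adjusted p = 0.12). In p16-null DMD muscle 21 rose and 2 fell (median 1.46). There Reck rose by 0.69 ± 0.25 (adjusted p = 0.030) and Plau by 0.50 ± 0.14 (adjusted p = 0.0079), while Furin was at 0.37 ± 0.17 (adjusted p = 0.084). The genes that fell in DMD muscle, named after their values were seen, were Bsg (-0.55), a surface protein that induces MMPs, and the convertase Pcsk6 (-0.69). None passed between the dystrophic groups by edgeR, and 4 of 27 had an unadjusted p under 0.05, against 5.16% of all genes. With age 10 of 26 rose and 4 fell (median 0.48), and 7 in all passed without 18-month replicate 2. Lrp1 was at 0.82 ± 0.14, Reck at 0.79 ± 0.19 (adjusted p = 0.0092) and Ctsl, named after its value was seen, at 1.90 ± 0.17.

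Among 24 matrix and membrane proteins that MMPs can cut, 23 were tested, and 18 rose and 1 fell in DMD muscle (median 1.53). The shares rising and falling over all genes were 26.4 and 21.8% in DMD muscle and 27.5 and 22.7% in p16-null DMD muscle. With age they were 9.31 and 10.1%. The proteoglycan Bgn rose by 3.18 ± 0.21, and Col6a1, Col6a3 and Col6a2 rose by 2.28 ± 0.23, 2.26 ± 0.21 and 2.17 ± 0.23. Dag1, which encodes dystroglycan, the membrane partner of dystrophin, was the single gene that fell, by 0.64 on the log2 scale (SE 0.19, adjusted p = 0.012). Dag1 was named after its value was seen. In p16-null DMD muscle 20 rose and 1 fell (median 1.55), and none passed against DMD muscle by edgeR or had an unadjusted p under 0.05. With age 2 rose and 6 fell (median -0.30). Col1a1 fell from 1574 ± 831 to 215 ± 31.3 CPM (-2.87 ± 0.32) and Col3a1 from 1916 ± 437 to 633 ± 81.0 CPM (-1.59 ± 0.17), while Bgn rose by 1.14 ± 0.18, and 16 passed without 3-month replicate 3. These age changes of named genes were picked after their values were seen.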

How the data were processed

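RNA was measured by sequencing of 18 muscle libraries. The values are RSEM expected counts and TPM per gene, both as deposited by the authors. The submitters' processing notes name RSEM 1.3.3, STAR 2.7.10b, FastQC and Trimmomatic, and build mRatBN7.2. They name no annotation release and no setting for strand. Per the labels' protocols, RNA came from frozen tibialis anterior sections, was extracted with an RNeasy mini kit, and libraries were made with a TruSeq kit at BGI. Rounding to whole numbers touched 4.5% of the count values. Entries without a symbol, 3.64 to 17.6% of a library's counts, stayed in the fits.

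Genes were filtered by filterByExpr, and TMM was used for scaling. The test was the quasi-likelihood test of edgeR 4.0.16 in R 4.3.3, with Benjamini-Hochberg adjustment over 14801 genes (1 fit of the 9-month groups) or 13487 genes (WT of 3 and 18 months). CPM uses TMM over all 18 libraries. The TMM factors were 0.687 to 0.761 in WT of 9 months and 0.998 to 1.19 in the dystrophic groups. The 8 members, the lists and the markers were chosen with earlier results of these data known. Named from each list are up to 4 tested genes with the smallest p in DMD against WT muscle, and Adam10, Adam17, Reck, Plau, Furin and Mmp12 always (another gene the rule names is not reported here); other names are marked as picked later. Likeness used genes with a mean log2 CPM of at least 2, a pseudocount of 0.5 CPM and members whose groups spanned over 1 on the log2 scale.

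Alternatives were DESeq2 1.42.0, RLE scaling, library totals, limma 3.58.1 on log2 of TPM plus 1 or 0.1, no filter, a filter of 5 CPM in 3 libraries, only the groups compared, all libraries in 1 fit, a replicate block, each library left out in turn, and scaling without the 50 most abundant genes. The steps were tested on simulated data. The 27 pairs of libraries within groups differed by more than counting error (chi-square per degree of freedom 12.5 to 83.7). Figures used matplotlib 3.10.9.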

Additional observations from a re-analysis of the deposited data

Results flagged for a closer look

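Groups of 6 libraries were searched for a library far from the others, and 2 of the 8 values checked in p16-null DMD muscle stood out. Chance alone gives this in about 1 in 20 groups only if values are normally distributed. Mmp9, with 2 to 80 counts per library, need not be, and values on the log2 scale were not checked. The 8 values share the same 6 libraries and the ratio is built from the members, so they are not separate chances. Mmp9 in replicate 1 was at 6.23 CPM and the next library at 0.997 CPM, a gap of 0.858 of the group's range, above Dixon's critical value for 6 libraries. The inhibitor-to-protease ratio of replicate 3 was 0.707 and the next 0.939, a gap of 0.673 of the range.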

How the results depend on the processing

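Calls of Mmp2, Mmp14, Mmp3 and Timp1 in both dystrophic comparisons, and of Timp1 with age, kept direction and side of the threshold in every alternative run. Timp3 in p16-null DMD against WT muscle reversed, to 0.64 and 0.65 by limma on TPM with pseudocounts of 1 and 0.1. With library totals the share of higher genes among those called went from 54.8 to 86.1% (DMD), 54.8 to 86.6% (p16-null DMD) and 47.9 to 80.0% (age); by TPM it was 88.4, 89.8 and 87.5%. The number of members called with age was 1 in a fit of all libraries, in place of 3, and ran from 1 to 4 with a library left out. The ratio differences moved to -1.60 (summed CPM) and -1.32 (mean log2 TPM) in DMD against WT, to -1.89 (summed CPM) and -1.59 (without Mmp2) in p16-null DMD against WT and to 0.48 (mean log2 TPM) with age. Of all genes 1 passed between p16-null DMD and DMD, 12 by DESeq2, 2 by TPM, 85 without DMD replicate 1 and 2 without either DMD replicate 3 or replicate 2 of p16-null DMD; with age 2622 passed, 1742 in a fit of all libraries and 1696 without 18-month replicate 1. The cause was not tested.

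Same-numbered libraries showed no clear tendency to deviate together. Correlations were -0.08 to 0.04 in DMD against WT and 0.00 to 0.07 in p16-null DMD against WT. They were -0.21 to 0.02 in p16-null DMD against DMD and 0.02 to 0.10 with age. With 3 same-numbered pairs per comparison, these values cannot exclude that the numbers pair the libraries. With the replicate number as a block 5, 4, 0 and 3 members passed in these comparisons. Mmp9 (adjusted p = 0.093) and Timp4 (adjusted p = 0.12) were lost in p16-null DMD against WT, and 0 genes passed against DMD. Replicates 4, 5 and 6 exist only in the p16-null DMD group, so in that fit its differences rest on replicates 1 to 3. The part of pairing and of fewer libraries in these losses was not tested. Depth limits Mmp9, with 2 counts over the WT libraries of 9 months.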
